A study of Mus musculus with 2 samples.

Results

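The MYC, MAX and MXD network is a group of 10 related transcription factor genes, and its RNA levels were read here in MEL cells, a mouse erythroleukemia line. The members were set by gene symbol, by a rule that uses no measured value though earlier results of these data were known: Myc, Mycn and Mycl of the MYC family, Max, the MXD antagonists Mxd1, Mxd3, Mxd4 and Mxi1, and the larger proteins Mnt and Mga. All 10 were found among the 43346 Ensembl genes of the tables, with 45 transcripts between them. The series held 2 total RNA libraries of 1 group, MEL cells of the same line kept in 2% DMSO for 5 days, which the labels number replicate 1 and replicate 2. The labels call them biological replicates but cite 1 biosample record for the pair, and the spread from one to the other may then be technical. With no untreated library analysed here, levels were compared between genes and between the libraries, and no effect of DMSO was measured.

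Proteins of this network bind DNA through a basic helix-loop-helix leucine zipper region, and do so in pairs. MYC proteins pair with MAX and recruit histone acetyltransferases and transcription elongation factors to genes for growth and division, and MXD and MNT proteins pair with the same MAX and recruit the SIN3 corepressor with its histone deacetylases. Both kinds of pair favour the E-box CACGTG. In MEL cells DMSO is a classical inducer of hemoglobin synthesis, and forced expression of Myc is known to hold back that response, while MXD genes are known in several blood lineages for rising as cells stop dividing.

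The libraries held 65109488 estimated counts in replicate 1 and 90856320 in replicate 2, and ribosomal RNA with its locus took 7.40% and 2.70% of them. The labelled cell type was checked with 7 erythroid genes, all at 1 TPM (a level per transcript length, scaled to a fixed sum in each library) or more in each library, with Gata1 at 57.4 TPM in replicate 1 and 64.3 TPM for replicate 2. Of 9 markers of other blood, connective, epithelial and endothelial cells none reached 1 TPM, their summed level was 0.37 TPM in replicate 1 and 0.24 TPM in replicate 2, and Epcam had 0 counts in both. The libraries did differ in erythroid RNA. All 7 erythroid genes had lower scaled counts in replicate 1, with a median log2 ratio of −1.15, and globin genes took 1.10% of counts in replicate 1 and 2.66% in replicate 2. Several results below move between the libraries along with these values, whose part in them was not tested.

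The levels of the members fell into steps that both libraries shared. Myc, Mxd4 and Mga stood at 5.43 to 13.27 TPM, Max, Mxd3 and Mxi1 at 2.68 to 4.09 TPM, Mxd1 and Mnt at 1.00 to 1.46 TPM, and Mycn and Mycl were listed at 0. Thus 8 of 10 members reached 1 TPM in both libraries. Mxd1 lay on that limit in replicate 1, at 1.00 TPM with an authors' posterior interval of 0.94 to 1.06. Of all TPM, coding genes took just 13.5% in replicate 1 and 12.9% in replicate 2, and a value rescaled to nuclear protein-coding genes alone would be 7.57 and 7.88 times higher. On that scale Myc stood at 100.4 in replicate 1 and 57.4 in replicate 2. In bulk RNA, fewer cells making a transcript and less of it per cell cannot be told apart.

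**Figure D1:**
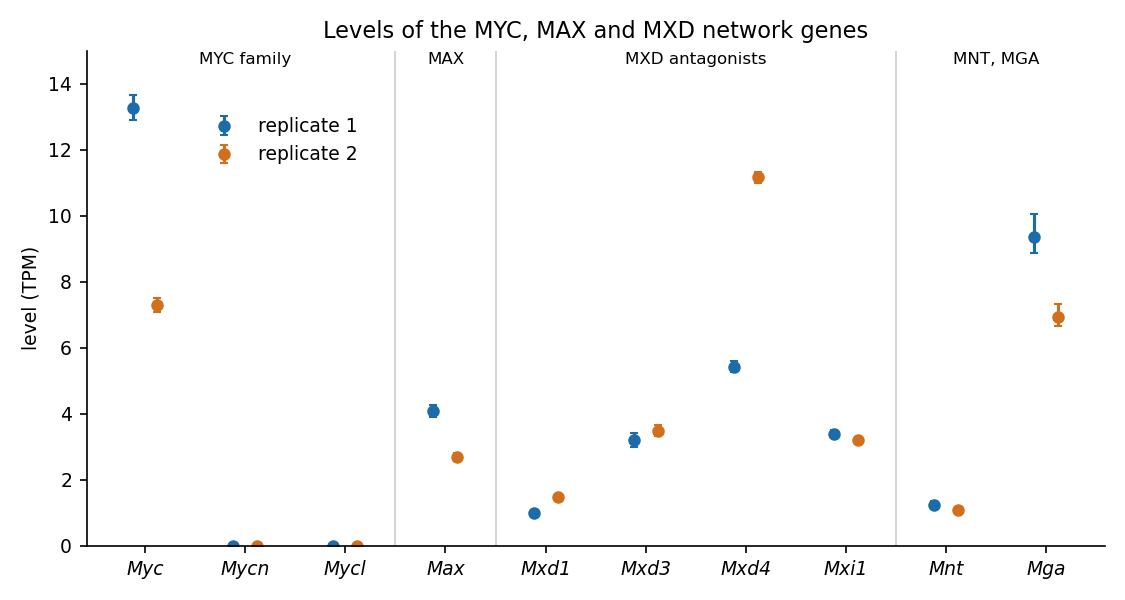
TPM of each of the 10 members on a linear axis from 0, grouped by role, with replicate 1 to the left of replicate 2. Points show the deposited TPM and vertical lines the authors' posterior interval of each value. Myc leads in replicate 1 at 13.27 TPM, and Mxd4 leads in replicate 2 at 11.16 TPM.

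Myc (ENSMUSG00000022346, chr15:61985391-61990374, plus strand, GRCm38) encodes the MYC protein that dividing cells of most lineages use. It was measured at 13.27 TPM in replicate 1 and 7.29 TPM in replicate 2, a mean of 10.3 ± 4.23 TPM (SD, n = 2), from 6405 and 5835 counts. It ranked above 82.3% of the 8003 expressed protein-coding genes in replicate 1 and above 72.5% in replicate 2, where expressed means 1 TPM or more in both libraries. Myc RNA was therefore well detected after 5 days in DMSO, in the upper part of the expressed genes in both libraries. Its paralogs were not. Mycn (ENSMUSG00000037169, chr12:12936093-12941914, minus strand), best known from the nervous system, had 0 counts in replicate 1 and 1 in replicate 2. Mycl (ENSMUSG00000028654, chr4:122995652-123002485, plus strand), known from lung and dendritic cells, had 1 count in each. These are at or under 3 counts, the number a count of 0 allows, so no level and no difference was detectable at this depth. The rodent MYC-like genes Bmyc and Mycs had 0 counts in both libraries.

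Max (ENSMUSG00000059436, chr12:76937269-76962201, minus strand) encodes the partner that MYC proteins need to bind DNA, and that the MXD proteins, MNT and MGA share. It was measured at 4.09 TPM in replicate 1 and 2.68 TPM in replicate 2, a mean of 3.39 ± 0.997 TPM (SD, n = 2). Its RNA was thus less abundant than that of Myc in both libraries, with Myc over Max at 3.24 in replicate 1 and 2.72 in replicate 2. Set against the summed level of the other 9 members, Max came to 0.111 in replicate 1 and 0.0774 in replicate 2, a mean of 0.0942 ± 0.0237 (SD, n = 2). These are ratios of RNA, and the proteins were not measured.

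Max is made in a long and a short form that differ by a cassette exon of 27 bases, placed at chr12:76961263-76961289 (GRCm38, minus strand) just before the DNA-binding region. The difference is printed because these forms shifted most between the libraries among transcripts of the expressed members, by percent of TPM. The capitals mark the cassette exon, with the neighbouring exon bases on either side in lower case. The second line shows the same exons joined without it.
Max with the cassette exon: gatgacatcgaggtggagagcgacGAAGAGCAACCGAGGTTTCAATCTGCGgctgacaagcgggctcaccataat
Max without the cassette exon: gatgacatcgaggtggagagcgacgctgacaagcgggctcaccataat
Max-202, with the exon, has a coding length of 480 nt, and Max-201, without it, has 453 nt. The form without the exon held 67.35% of Max TPM in replicate 1 and 48.55% in replicate 2, and the form with it held 32.65% and 51.45%. By TPM, the form with the exon had almost the same level in both libraries. It stood at 1.34 TPM in replicate 1 (authors' posterior interval 1.04 to 1.64) and 1.38 TPM in replicate 2 (1.16 to 1.60). The form without it stood at 2.76 TPM in replicate 1 (2.43 to 3.07) and 1.30 TPM in replicate 2 (1.09 to 1.52), so the intervals of the shorter form do not overlap between the libraries. Before scaling for depth, the form with the exon had 596 and 1019 estimated counts in replicates 1 and 2. The form without it had 1212 and 947. TPM of the median expressed gene lay 0.26 log2 units higher in replicate 1, so the near equality belongs to the TPM scale.

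That shift of 18.8 percentage points can be set against the whole table. Among 5304 expressed protein-coding genes with several transcripts and 1000 or more counts in both libraries, the median shift of the most shifted transcript was 5.01 points and the 90th percentile 12.6 points. A shift as large as that of Max occurred in 125 of them, or 2.36%. By percent of TPM, Max had the largest shift among the members, ahead of Mga at 11.7 points and Myc at 7.21 points. The other members with several transcripts in that comparison moved by 2.28 points or less. By share of counts, forms of Mga moved further than those of Max, as given below. Max had 1808 counts in replicate 1 and 1966 in replicate 2, of which only reads across the cassette exon or its skipped junction tell the forms apart.

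**Figure D2:**
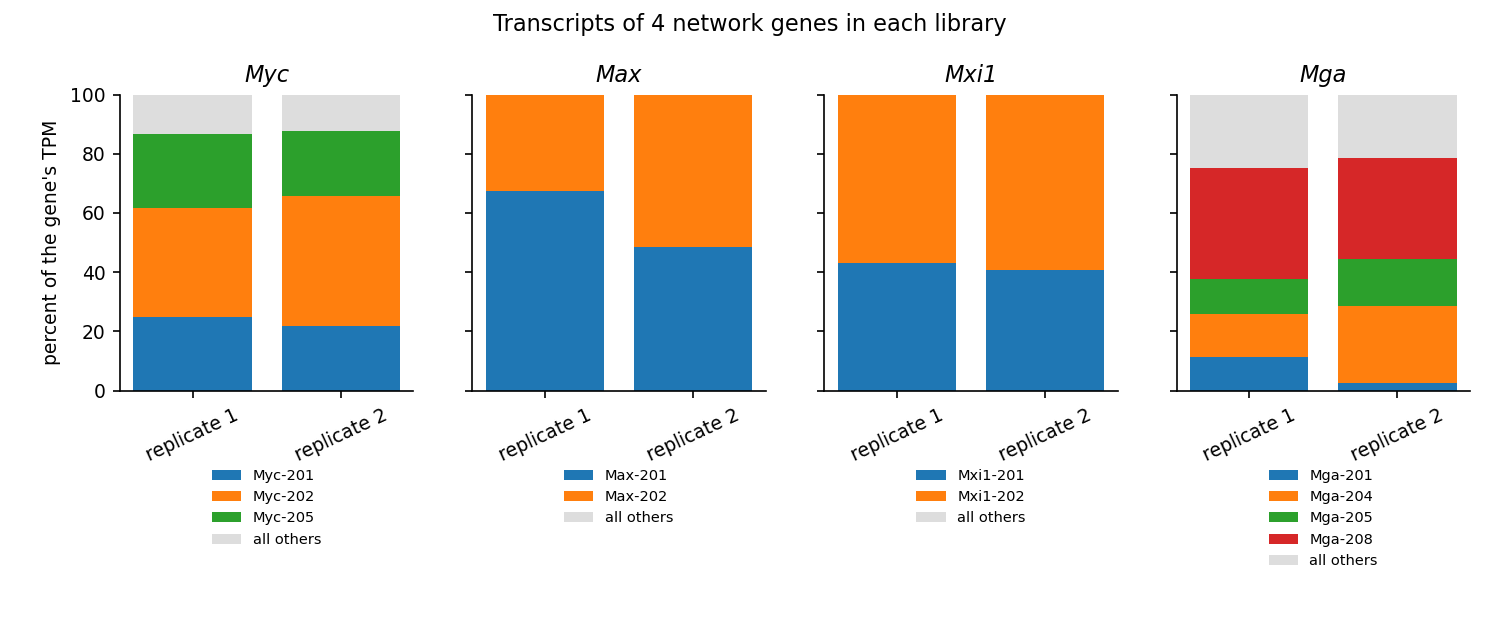
Percent of the TPM of Myc, Max, Mxi1 and Mga held by each transcript with 10% or more in either library, stacked with all others in grey, in replicate 1 (left bar) and replicate 2 (right bar). The Max form without the cassette exon takes 67.35% in replicate 1 and 48.55% in replicate 2, while the forms of Mxi1 differ by less between the libraries.

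The MXD antagonists were all expressed, at unlike levels. Mxd4 (ENSMUSG00000037235, chr5:34173883-34187720, minus strand), a family member known from differentiating cells, was measured at 5.43 TPM in replicate 1 and 11.16 TPM in replicate 2, a mean of 8.30 ± 4.05 TPM (SD, n = 2). Mxd3 (ENSMUSG00000021485, chr13:55325168-55329823, minus strand), which unlike its relatives is known from cells in S phase, was measured at 3.21 TPM and 3.48 TPM in replicates 1 and 2. Mxi1 (ENSMUSG00000025025, chr19:53310518-53375810, plus strand), also called MXD2, stood at 3.39 TPM in replicate 1 and 3.21 TPM in replicate 2. Mxd3 and Mxi1 could not be put in order, since their ranges overlap. Mxd1 (ENSMUSG00000001156, chr6:86647042-86669161, minus strand), the first of the family to be linked with terminal differentiation, was the lowest, at 1.00 TPM in replicate 1 and 1.46 TPM in replicate 2. Mxd4 alone held 41.7% of the summed MXD level in replicate 1 and 57.8% in replicate 2, and Mxd1 held 7.67% and 7.56%.

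Mnt and Mga are larger proteins that also pair with MAX. Mnt (ENSMUSG00000000282, chr11:74830920-74845725, plus strand), a widely expressed SIN3-binding repressor, was measured at 1.23 TPM in replicate 1 and 1.09 TPM in replicate 2, a mean of 1.16 ± 0.0990 TPM (SD, n = 2). Mnt and Mxd1 changed places between the libraries as the lowest expressed member. Mga (ENSMUSG00000033943, chr2:119897228-119969581, plus strand), which carries a T-box as well and is part of the Polycomb complex PRC1.6, was measured at 9.35 TPM in replicate 1 and 6.93 TPM in replicate 2. It is the longest of these genes and had 10138 and 15137 counts, but most of its TPM was not coding. Its protein-coding transcripts held 85.8% of its counts in replicate 1 and 88.4% in replicate 2, yet only 30.0% and 35.6% of its TPM, or 2.80 TPM and 2.47 TPM. The short noncoding transcript Mga-208, of 739 nt, held 37.48% of Mga TPM in replicate 1 and 34.03% in replicate 2. By coding transcripts Mga therefore stood below Max, Mxd3 and Mxi1 in both libraries.

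Of the neighbours in the order of mean levels, only Mga over Max, Mxi1 over Mxd1, and Mnt over Mycn, which was listed at 0, kept their order in both libraries with ranges that did not overlap. Myc over Mxd4 was 2.44 in replicate 1 and 0.653 in replicate 2, so the first place changed hands. Myc lay above Mga by 1.42 and 1.05 times, above Mxi1 by 3.91 and 2.27 times, and above Mxd1 by 13.3 and 4.99 times in replicates 1 and 2. It was thus above each of the other members except Mxd4 in both libraries, though its range overlapped that of Mga. In replicate 2 the authors' posterior intervals of Myc (7.09 to 7.52 TPM) and Mga (6.67 to 7.32 TPM) overlapped too.

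The question set by the network itself is how the activators stand against the antagonists that share their partner. The MYC family summed to 13.27 TPM in replicate 1, all of it Myc, against 13.03 TPM for the 4 MXD antagonists, a ratio of 1.02. In replicate 2 the MYC family summed to 7.29 TPM against 19.31 TPM for the MXD antagonists, a ratio of 0.378. The mean ratio was 0.698 ± 0.453 (SD, n = 2). Over the libraries the MYC family averaged 10.3 ± 4.23 TPM and the MXD antagonists 16.2 ± 4.44 TPM (SD, n = 2). The ratio was 2.70-fold higher in replicate 1 than in replicate 2, near 1 in one and well below it in the other, so these libraries do not place either family above the other. No test was run on the ratio, since the smallest exact two-sided p that 2 libraries allow is 0.5. Adding Mnt to the antagonists gave 0.931 in replicate 1 and 0.357 in replicate 2, and adding Mnt and Mga gave 0.562 and 0.267, below 1 in both. The last ratios count all Mga TPM, of which coding transcripts held only 30.0% in replicate 1 and 35.6% in replicate 2. They therefore overstate the part of Mga that can make protein.

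**Figure D3:**
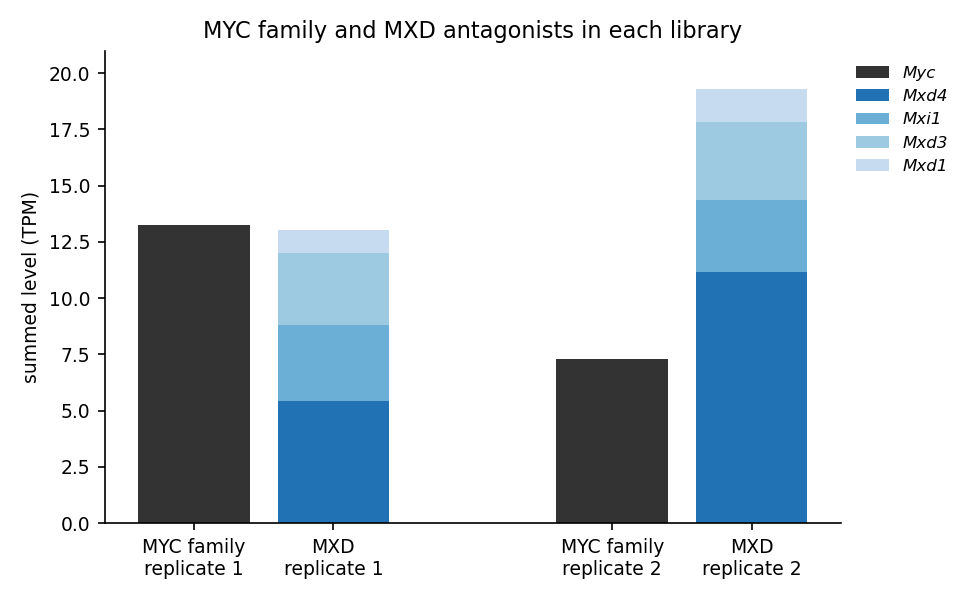
Summed TPM of the MYC family and of the MXD antagonists in replicate 1 (left pair) and replicate 2 (right pair), stacked by gene on an axis from 0. The sums are 13.27 and 13.03 TPM in replicate 1, and 7.29 and 19.31 TPM in replicate 2, where Mxd4 forms the largest block.

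The libraries were then compared gene by gene on TMM-scaled counts, as log2 of replicate 1 over replicate 2. The test was an exact two-sided binomial test with Benjamini-Hochberg adjustment over 15275 genes, and calls required an adjusted p under 0.05 with at least a 2-fold ratio. It compares the reads of 2 libraries of the same condition, not conditions. At these depths the adjusted p alone separated 78.1% of expressed protein-coding genes, so the size of the difference carries the information. Of the 8 members tested 1 was called, Mxd4, where 1.19% of the 8003 expressed protein-coding genes were called, 0.562% as higher in replicate 1 and 0.625% as higher in replicate 2. A single call among 8 is too small a count to set against that share.

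Mxd4 had 4824 counts in replicate 1 and 16466 in replicate 2, a log2 ratio of −1.32 (95% interval −1.37 to −1.28), or 2.50-fold lower in replicate 1. This difference exceeded that of 99.6% of expressed protein-coding genes in size. Mxd1, with 1091 counts in replicate 1 and 2626 in replicate 2, had −0.82 (−0.92 to −0.72) and missed the 2-fold limit. Mxd3 had −0.38 (−0.50 to −0.27) and Mxi1 −0.20 (−0.26 to −0.14). In size the difference of Mxd1 exceeded that of 97.4% of expressed protein-coding genes, Mxd3 77.2% and Mxi1 just 48.5%, so that of Mxi1 was ordinary. All 4 MXD antagonists thus had lower scaled counts in replicate 1, the library with less globin RNA, where 43.8% of expressed protein-coding genes had positive ratios. Their median was −0.60, set by Mxd1 and Mxd3, beside a median of −0.04 over the expressed protein-coding genes.

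Myc had 0.58 (0.53 to 0.64) and Max 0.33 (0.24 to 0.42), both higher in replicate 1 and short of 2-fold. The size of the Myc difference exceeded that of 91.7% of expressed protein-coding genes, and that of Max exceeded 70.4%. Mnt had −0.08 (−0.18 to 0.02), with an adjusted p of 0.166 in the exact binomial test, and Mga −0.13 (−0.16 to −0.09). The spread between these libraries over all 15275 genes was a common biological coefficient of variation of 0.216 in edgeR. On the TPM scale the median expressed gene lay 0.26 log2 units higher in replicate 1, so the direction of Mxi1, Mnt and Mga depended on the scale: each was higher in replicate 1 by TPM and lower by scaled counts. The directions of Myc, Max, Mxd1, Mxd3 and Mxd4 were the same on both scales. For Mga the mean effective length that the tables assign was 4497 nt in replicate 1 and 5451 nt in replicate 2, following a different mix of transcripts.

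**Figure D4:**
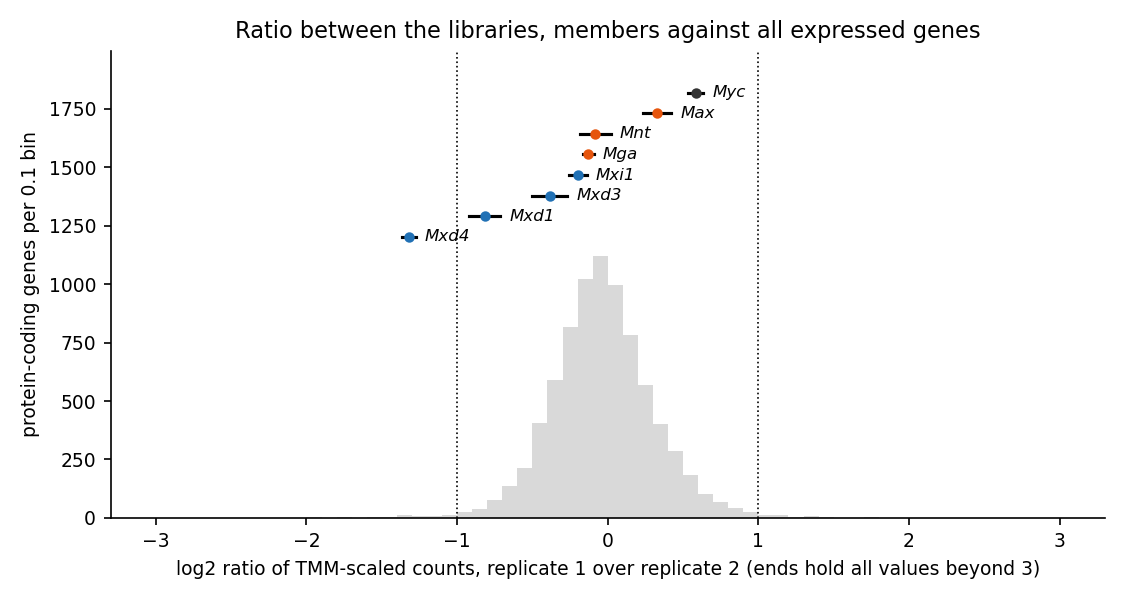
Log2 ratio of TMM-scaled counts, replicate 1 over replicate 2, for the 8 members tested (points with exact 95% intervals that cover counting error only, set at arbitrary heights, MXD antagonists in blue, Myc in black, the rest in orange) above a histogram of the 8003 expressed protein-coding genes. Myc and Max lie above 0, the 4 MXD antagonists with Mnt and Mga below it, and Mxd4 alone lies beyond the dotted 2-fold lines.

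By percent of TPM, transcripts of the other expressed members were more stable than those of Max. For Myc, Myc-201 and Myc-205 have identical exons, so that reads cannot be divided between them and their shares are given together. These forms with the upstream start held 49.94% of Myc TPM in replicate 1 and 43.72% in replicate 2. Myc-202, which starts 173 bases downstream, held 36.60% and 43.81%. It also ends further downstream, at 61990374 against 61990350, so the shares cannot be read as use of the starts alone. The classical Myc promoters P1 and P2 also lie close together, although whether the annotated starts match them was not tested. Mxi1 used both of its starts, which lie 18940 bases apart. The upstream form, with a coding length of 885 nt, held 42.93% of Mxi1 TPM in replicate 1 and 40.66% in replicate 2, and the downstream form, with a coding length of 576 nt, held 56.87% and 59.15%. Such starts are known to give Mxi1 proteins with different amino ends. Within Mga, the coding form Mga-204 held 14.48% of TPM in replicate 1 and 26.17% in replicate 2, and Mga-201 held 11.50% and 2.40%. The noncoding Mga-205 held 11.55% and 16.02%. By share of Mga counts the coding forms moved more, Mga-201 from 30.3% in replicate 1 to 5.20% in replicate 2. Mga-204 went from 44.4% to 66.1%. Both shifts were larger than that of the Max form without the cassette exon, which held 67.0% and 48.2% of Max counts. One transcript held over 90% of TPM for Mxd3, Mxd4 and Mnt in both libraries, and Mxd1 has a single transcript in the tables. Mxd3 shares 105 nt at its 3′ end with Prelid1 on the opposite strand, which had 7979 counts in replicate 1 and 11321 in replicate 2. By gene span, Mxd4 overlaps Gm42846 by 1001 nt and Mxi1 overlaps AC133451.2 by 5146 nt, also on the opposite strand. Max overlaps Gm47218 by 1319 nt and Mxd1 overlaps Gm44292 by 2364 nt on the same strand. None of these has a value from the authors, so their reads are unknown. Whether reads were assigned by strand is not given in the sources used here, so Mxd3, Mxd4 and Mxi1 are less certain values.

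The promoters of the network were read for the E-box that its own proteins bind. RefSeq windows on GRCm38.p6, 250 bases before to 50 after a start site, were matched for 9 members by symbol, and the motif searched was CACGTG, which reads the same on both strands. No window was matched for Myc, so its promoter was not searched. The motif was found in 3 of the 9 matched members, Max, Mnt and Mxd4, and in 8.09% of all 27025 genes with windows. Among expressed protein-coding genes 823 of 6441 held it, or 12.8%. The windows are printed because they carry the network's own motif, in capitals, at unlike distances from the start. Its first base lies 219 bases upstream in Mxd4 (chr5:34187661-34187960, minus strand), 3 bases upstream in Max (chr12:76962199-76962498, minus strand) and 123 bases upstream in Mnt (chr11:74830674-74830973, plus strand).
Mxd4: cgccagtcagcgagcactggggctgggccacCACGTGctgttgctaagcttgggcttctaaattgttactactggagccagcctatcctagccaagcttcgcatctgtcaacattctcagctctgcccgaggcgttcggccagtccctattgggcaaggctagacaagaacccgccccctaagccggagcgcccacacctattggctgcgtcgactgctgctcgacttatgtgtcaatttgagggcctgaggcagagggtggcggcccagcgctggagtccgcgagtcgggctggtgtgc
Max: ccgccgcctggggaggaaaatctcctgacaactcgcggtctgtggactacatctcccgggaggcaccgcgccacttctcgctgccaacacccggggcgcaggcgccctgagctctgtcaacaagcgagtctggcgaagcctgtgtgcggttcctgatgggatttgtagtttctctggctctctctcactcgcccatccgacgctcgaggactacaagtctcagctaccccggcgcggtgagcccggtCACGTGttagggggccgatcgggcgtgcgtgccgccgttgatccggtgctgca
Mnt: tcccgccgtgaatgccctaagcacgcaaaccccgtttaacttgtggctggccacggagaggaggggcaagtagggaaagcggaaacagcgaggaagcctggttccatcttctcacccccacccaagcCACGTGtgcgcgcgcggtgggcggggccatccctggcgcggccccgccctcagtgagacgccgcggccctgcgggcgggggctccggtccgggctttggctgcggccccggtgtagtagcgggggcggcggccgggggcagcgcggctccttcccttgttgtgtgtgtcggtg
A match of letters is a description and shows no binding. The genes with the motif had no common direction between the libraries: Mxd4 had a log2 ratio of −1.32, Max 0.33 and Mnt −0.08.

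Genes tied to the network, as relatives, partners, regulators or known targets, were nearly all expressed. Over 7 lists of such genes, 69 of 75 reached 1 TPM in each library, and 46 of 75 reached 5 TPM. Of all 21474 protein-coding genes, 37.3% reached 1 TPM. The lists were chosen with earlier results of these data known, so the contrast with that share is a description only. The 75 include 25 known MYC targets, 24 of them expressed. In the parallel branch of the network, MLX takes the place of MAX. Mlx was measured at 7.18 TPM in replicate 1 and 6.35 TPM in replicate 2, and Mlxip, a glucose-sensing partner, at 1.90 TPM and 1.37 TPM. Mlxipl, the liver relative known as ChREBP, had 3 and 6 counts.

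All 13 genes for MYC partner complexes were expressed and none was called between the libraries, beside 1.19% of expressed protein-coding genes, with 8 positive and 5 negative log2 ratios and a median of 0.08. The helicases Ruvbl2 and Ruvbl1 led with the scaffold Trrap, Ruvbl2 at 32.2 TPM in replicate 1 and 19.0 TPM in replicate 2, and the acetyltransferase Kat5 was the lowest at 2.22 TPM and 1.94 TPM. Of 10 genes that govern MYC protein stability 9 were expressed and none was called, beside the same 1.19%, with a median of −0.10. The ubiquitin ligase Huwe1 was at 40.7 TPM in replicate 1 and 29.6 TPM in replicate 2, and the deubiquitinase Usp28 at 0.65 TPM and 0.54 TPM.

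On the side of the antagonists, all 12 SIN3 and NCOR corepressor genes were expressed and none was called, beside 1.19% in the background, with 6 ratios in each direction and a median of −0.03. The histone-binding subunit Rbbp7 was at 34.2 TPM in replicate 1 and 27.2 TPM in replicate 2, and the scaffold Sin3b at 27.4 TPM and 24.8 TPM. The MXD antagonists that recruit them had a median of −0.60, and the difference between these lists was not tested. Of 11 genes for PRC1.6, the complex of MGA, 10 were expressed and none was called, again beside 1.19%, with a median of 0.14. These counts of 0 are near that share and say nothing particular of any list. Cbx3 led with 20.0 TPM in replicate 1 and 19.3 TPM in replicate 2, and Rybp was listed at 0.02 TPM in both.

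Known MYC target genes gave the highest median of the pathway lists. Of 25, 24 were expressed, and the list's median level was 26.1 TPM in replicate 1 against 11.8 TPM for replicate 2. Both medians are values of the same gene, whose log2 ratio of scaled counts was 0.86, above that of most targets. They are also on the TPM scale, where the median expressed gene lay 0.26 log2 units higher in replicate 1. By scaled counts the median log2 ratio of the targets was 0.56, beside −0.04 for expressed protein-coding genes. Of the 25 ratios 21 were positive, where 43.8% of expressed protein-coding genes were. Srm, which makes spermidine, was the 1 gene called, at 25.2 TPM in replicate 1 and 9.90 TPM in replicate 2, with a log2 ratio of 1.07, and 0.562% of expressed protein-coding genes were called in that direction. A single call is too small a count to read against that share. The nuclear protein gene Ptma was at 287 TPM in replicate 1 and 220 TPM in replicate 2, and Ldha, which makes lactate dehydrogenase A, at 119 TPM and 65.6 TPM. The 4 negative ratios, named after their values were seen, belonged to Npm1, Tfrc, Shmt2 and Ccnd2. Tfrc, the transferrin receptor, is also high in erythroid cells. The CACGTG motif was in 6 of the 20 targets with a promoter window, among them Cdk4, Ldha and Nme1. It was in 12.8% of expressed protein-coding genes and 8.09% of all genes with windows, and the difference was not tested. By scaled counts, Myc itself, Max and most of these targets were thus higher in replicate 1, where globin and the MXD genes were lower (by TPM, Mxi1 was instead slightly higher there). With 1 library on each side no relation between these values could be tested.

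**Figure D5:**
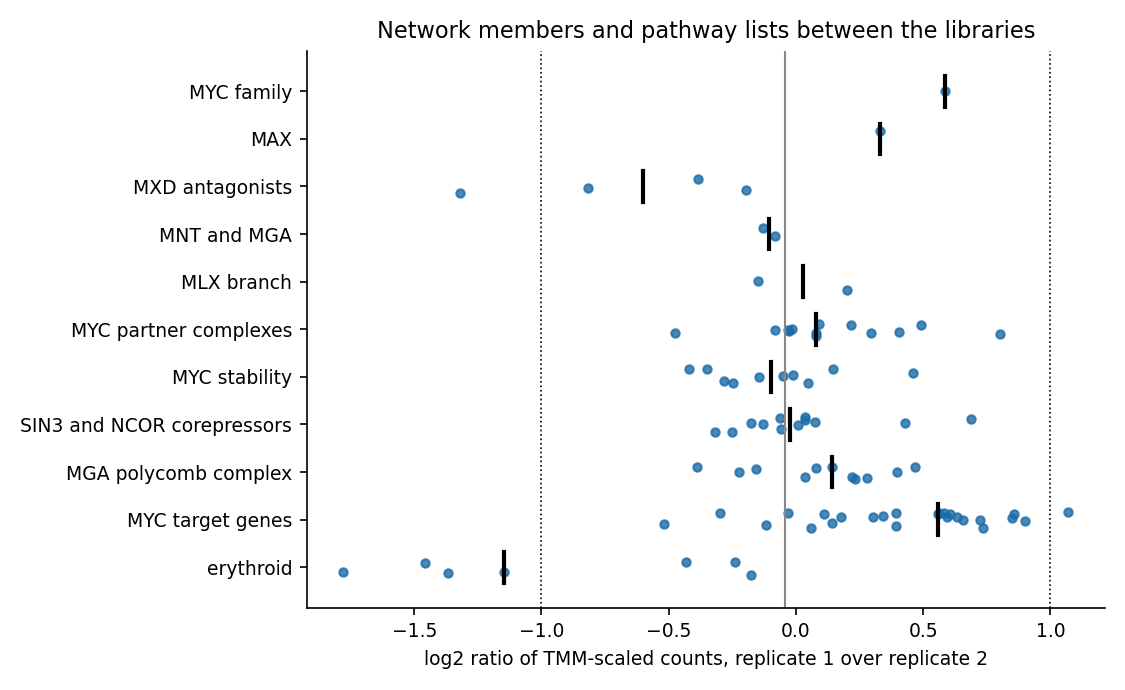
Log2 ratio of TMM-scaled counts, replicate 1 over replicate 2, for each tested gene of the member groups, the pathway lists and the erythroid markers (points), with the median of each (short black lines), the median of expressed protein-coding genes (grey line) and 2-fold lines (dotted). Of the pathway lists the MYC target genes have the highest median, 0.56, and the corepressor list a median of −0.03.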

How the data were processed

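Total RNA of 2 libraries of 1 group was analysed. Per the readme deposited with the samples, the authors used mm10 and GENCODE M4. The aligner, quantifier, versions and strand setting were not given in the sources used here. Each gene has in the authors' tables, per the file headers, an estimated count, TPM, FPKM and posterior values. The deposited transcript tables add the percent of a gene's TPM that each transcript holds. The level of the authors' posterior intervals was likewise not given. The authors' deposited FPKM served as an alternative unit.

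Names, coordinates (1-based) and transcript structures came from GENCODE M21 on GRCm38, the same coordinates as mm10, so some transcript lengths differ from those the authors used. Of 43346 Ensembl genes 42462 matched by identifier. The gene-level estimated counts of all 10 members were whole numbers with a posterior SD of 0. For the tests, counts were rounded and scaled by TMM in edgeR 4.0.16 (R 4.3.3), keeping genes that had at least 10 counts in either library. The exact two-sided binomial test was run in scipy 1.17.1, the p of genes with over 20000 counts in all being the doubled smaller exact tail, and was tested on simulated data. edgeR's quasi-likelihood test cannot be fitted with 1 library on each side. Log2 ratios have 0.5 added, and their 95% intervals are Clopper-Pearson. The limit that a count of 0 allows was set at 3 counts (0.0461 CPM for replicate 1, 0.0330 CPM for replicate 2). Intervals and floors cover counting error only, and p-values measure only the difference between these libraries.

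The text names all members, the 3 highest and the lowest gene of each list, those called, every gene of lists of 3 or fewer, and transcripts with 10% or more of a member's TPM. Values of 2 list genes are not reported here singly. Members and lists were chosen with earlier results of these data known. Alternatives were other units, gene sets, scalings (DESeq2 1.42.0 size factors, total counts), count minimums, fold limits, pseudocounts and TPM thresholds, and each library left out.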

Additional observations from a re-analysis of the deposited data

How the results depend on the processing

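Without replicate 1 or 2, the ratio of the MYC family to the MXD antagonists ranged from 0.378 to 1.02, so it depends on the library: the ratio was near 1 in replicate 1 and well below 1 in replicate 2. Max over the other 9 members ranged from 0.0774 to 0.111, and 8 members reached 1 TPM either way. With estimated counts in place of TPM, which leaves length uncorrected, Max over the other members was 0.0512 against 0.0942, and MYC over MXD was 0.403 against 0.698. By those counts MYC over MXD was 0.590 in replicate 1 and 0.216 in replicate 2, below 1 in both. At 1.5-fold in place of 2-fold, 2 members were called, Mxd4 and Mxd1, where 8.31% of expressed protein-coding genes were. DESeq2 size factors, total counts, other count minimums, posterior mean counts and a pseudocount of 5 each left Mxd4 as the 1 member called, and the log2 ratios of the 8 members tested kept their sign under each. With FPKM the mean MYC over MXD ratio was 0.698, and with coding transcripts alone 0.709. Of the alternatives for single members and transcripts 104 stayed within the spread or on the same side of the threshold, 12 moved and 1 passed the threshold, most of those that moved being shares computed from counts without length correction. No paired analysis was possible because there was only 1 group. Depth limits Mycn and Mycl, for which only an upper limit can be given.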
